A study of Mus musculus with 8 samples.

Results

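The neuronal intermediate filament genes of the mouse are Nefl, Nefm and Nefh, which encode the light, medium and heavy neurofilament subunits, together with Ina, which encodes alpha-internexin, and Prph, which encodes peripherin. These 5 genes were picked by name from 38553 genes in the expression table. All 5 were among the 13674 genes that were tested. They were picked with their dorsoventral values already known, so those values are given as a description of the family.

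Intermediate filament proteins share a central alpha-helical rod that pairs into coiled coils and assembles into long, stable filaments. In neurons the light subunit forms the core of the filament, the medium and heavy subunits carry long tails that project sideways, and the number of filaments is known to go with the calibre of large myelinated axons. Alpha-internexin is abundant in central neurons and can be a further subunit of their filaments, whereas peripherin is best known from sensory, autonomic and motor neurons.

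The medial entorhinal cortex (MEC) is the cortical area that holds grid cells, and its dorsal and ventral ends differ in neuronal properties. The series asked which genes differ in expression between the dorsal and the ventral MEC. The 13 mice were 8-week-old males of the C57BL/6JolaHsd strain, and the labels name no drug treatment and no altered gene. Each brain gave one 400 µm sagittal slice of the right hemisphere, and both ends of the MEC were dissected from it. Tissue was pooled from 3 or 4 mice into 4 pools, so a library is a mean over several animals and both regions came from the same animals. There are 4 dorsal and 4 ventral libraries of amplified cDNA from total RNA. A library holds every cell type of the dissected piece.

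Levels are FPKM, the number of sequenced fragments scaled by transcript length and by library size, so that genes of different length can be compared. Each library's total FPKM lay between 298763 and 341402. The total number of fragments per library is not given here, and the relative depth read from the smallest values lay between 0.83 and 1.22. The share of FPKM from mitochondrial genes was 5.60% to 7.28% in 6 libraries but 11.7% in dorsal library 4 and 10.9% in ventral library 4. The region of a library was taken from the regional means that accompany the table. They were compared for the 20104 genes with a regional mean of at least 0.1 FPKM in either region. For 20089 of these genes they equal the means of the columns as grouped here, within 0.1%. Grouped by the letters in the column headers, 357 genes match, and 4 of the 8 headers name the other region. With the regions taken from those letters, Nefl, Nefm, Nefh and Prph change direction, with log2 ratios of ventral to dorsal (V/D) of 0.14, 0.39, 0.19 and 0.33, and none of the 5 genes is called.

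Nefl and Nefm are neighbours on chromosome 14 and are transcribed from opposite strands. In the GENCODE M21 annotation of the GRCm38 build, Nefl-201 spans chr14:68083863-68089095 on the plus strand in 4 exons and codes for 543 amino acids. Nefm-201 lies on the minus strand at chr14:68119283-68124846, with 3 exons and 848 codons. A longer Nefm transcript, Nefm-202, has an exon 4 that overlaps exon 1 of Nefl over 1108 bases (chr14:68083863-68084970). Whether counting used strand is not stated in the sources used here, so fragments from these bases could be credited to either gene.

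Nefh-201 lies on the minus strand at chr11:4938754-4948064, with 4 exons and 1090 codons. Ina-201 is on the plus strand at chr19:47014698-47025327 with 3 exons and 501 codons. Its exon 1 overlaps, over 456 bases, exon 1 of a transcript of Nt5c2, a nucleotidase gene on the other strand with a mean of 10.2 FPKM. Prph-202 is on the plus strand at chr15:99055175-99058977 with 8 exons and 507 codons.

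The family resemblance can be read in the coding sequence at the start of the rod. The 30 bases below all lie in exon 1 and are given 5′ to 3′ on the coding strand, from the GRCm38 genome with the GENCODE M21 reading frame. Capitals mark the 22 bases that all 5 genes share. The stretch of Nefl lies inside the overlap with Nefm-202, and that of Ina lies inside the overlap with Nt5c2.
Nefl, chr14:68084251-68084280, plus strand: CTcAACGAtCGCTTCGCcagcTtCATCGAg
Nefm, chr14:68124469-68124498, minus strand: CTgAACGAcCGCTTCGCcggcTaCATCGAg
Nefh, chr11:4947602-4947631, minus strand: CTgAACGAcCGCTTCGCgggcTaCATCGAc
Ina, chr19:47015055-47015084, plus strand: CTcAACGAcCGCTTCGCcgtgTtCATCGAg
Prph, chr15:99055528-99055557, plus strand: CTcAACGAcCGCTTCGCcaacTtCATCGAg

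The tails set the subunits apart. Lys-Ser-Pro codon triplets, whose serines are the sites of heavy phosphorylation in axons, were counted in each coding sequence. Nefh holds 51 of them, between codons 522 and 887. Nefm holds 4, and Nefl, Ina and Prph hold 0. A stretch of the Nefh tail in exon 4, codons 521 to 560, is shown because it carries the repeat that gives the heavy subunit its length, with its 7 Lys-Ser-Pro codon triplets in capitals.
Nefh, chr11:4940938-4941057, minus strand: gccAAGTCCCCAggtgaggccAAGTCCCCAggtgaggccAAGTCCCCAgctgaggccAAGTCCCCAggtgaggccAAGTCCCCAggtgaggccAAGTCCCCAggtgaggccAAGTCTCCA

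All 3 neurofilament subunit genes were higher in dorsal than in ventral MEC, by 35.1% for Nefl, 93.0% for Nefm and 75.5% for Nefh, whereas Ina differed by 6.48% and did not pass the test. Prph was 59.3% higher dorsally at a low level and did not pass after adjustment. A gene was called when the adjusted p of limma on log2(FPKM + 1) was below 0.05 and the mean FPKM of one region was more than 20% above that of the other. By this rule 3 of the 5 genes were called as higher dorsally, beside 294 of 13674 genes tested, or 2.15%, and none as higher ventrally, beside 198, or 1.45%. In both directions together 3.6% of all genes were called. When all libraries were brought to the same total FPKM, the counts over all genes were 195 and 201, and again 3 filament genes were called.

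**Figure D1:**
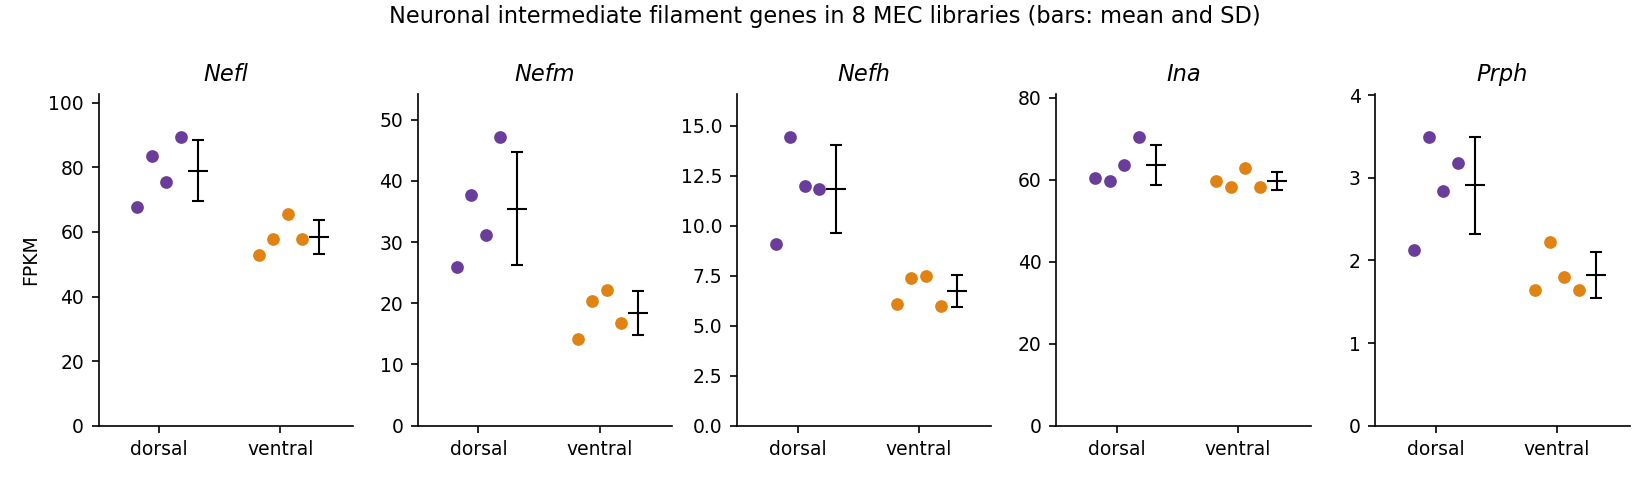
FPKM of the 5 filament genes (vertical axes, each from 0 and with its own scale) in the 4 dorsal and 4 ventral libraries, 1 point per library in the order 1 to 4, with the mean and SD beside the points. For Nefl, Nefm and Nefh every dorsal point lies above every ventral point, and for Ina and Prph the regions overlap.

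Nefl had the highest mean level of the family. Its FPKM in dorsal libraries 1 to 4 was 67.7, 83.4, 75.5 and 89.5, and in ventral libraries 1 to 4 it was 52.8, 57.9, 65.5 and 57.7. The regions did not overlap, but the lowest dorsal library, dorsal 1, stood only 2.23 FPKM above the highest ventral library, ventral 3. The means were 79.0 ± 9.45 and 58.5 ± 5.22 FPKM (SD, n = 4 each), a log2(V/D) of -0.43. The limma estimate on log2(FPKM + 1) was -0.42 (SE 0.10, adjusted p = 0.0388). Of all 3 calls this is the least stable. It was kept without dorsal library 1 or ventral library 3 and lost without any 1 of the other 6 libraries, with adjusted p from 0.0236 to 0.123 and log2(V/D) from -0.50 to -0.37.

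Nefm, whose product carries one of the long side tails, showed the largest ratio of the family and, relative to its mean, the widest spread, with a coefficient of variation of 25.8% dorsally and 19.5% ventrally. It stood at 25.97, 37.6, 31.1 and 47.2 FPKM in dorsal libraries 1 to 4 and at 14.1, 20.4, 22.1 and 16.8 in ventral libraries 1 to 4. Every dorsal library was above every ventral one, by at least 3.85 FPKM, and the dorsal values ranged more widely than the ventral ones. The mean fell from 35.5 ± 9.16 FPKM dorsally to 18.4 ± 3.58 ventrally (SD, n = 4 each), a log2(V/D) of -0.95 and a dorsal level 1.93 times the ventral one. The limma estimate was -0.90 (SE 0.18, adjusted p = 0.0229). The call was lost without dorsal library 2, ventral library 1 or ventral library 4, where the adjusted p reached 0.0782.

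Nefh, the gene of the heavy subunit with the repeated tail shown above, was expressed at a lower level than Nefl and Nefm in every library. Dorsal libraries 1 to 4 held 9.09, 14.4, 11.98 and 11.8 FPKM, and ventral libraries 1 to 4 held 6.10, 7.37, 7.50 and 6.00. The regions were separate, with 1.59 FPKM between dorsal library 1 and ventral library 3. The means were 11.8 ± 2.19 and 6.74 ± 0.802 FPKM (SD, n = 4 each), a log2(V/D) of -0.81. The limma estimate was -0.72 (SE 0.13, adjusted p = 0.0128), and leaving out each library in turn kept this call in 8 of 8 fits, with adjusted p from 0.00489 to 0.0470.

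Ina was nearly as abundant as Nefl but nearly even between the regions. Its FPKM was 60.5, 59.7, 63.7 and 70.5 in dorsal libraries 1 to 4 and 59.8, 58.2, 62.8 and 58.1 in ventral libraries 1 to 4. Apart from dorsal library 4, all values lay within one narrow band, and the regions overlapped. The means were 63.6 ± 4.91 and 59.7 ± 2.20 FPKM (SD, n = 4 each), a log2(V/D) of -0.09. The limma estimate of -0.09 (SE 0.07, adjusted p = 0.605) did not pass the test, and no fit without 1 library called it.

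Prph lay close to the lower limit for testing, a mean of 1 FPKM. It was measured at 2.12, 3.50, 2.84 and 3.18 FPKM in dorsal libraries 1 to 4 and at 1.65, 2.23, 1.796 and 1.64 in ventral libraries 1 to 4. Dorsal library 1 was below ventral library 2, and the other dorsal libraries were above all ventral ones. The means were 2.91 ± 0.590 and 1.83 ± 0.275 FPKM (SD, n = 4 each), a log2(V/D) of -0.67. The limma estimate was -0.46 (SE 0.13), with an adjusted p of 0.0874 over all genes. Without dorsal library 1 the adjusted p was 0.0345, and without any other library the gene was not called.

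The members can be placed among all genes by the size of their ratio. Among 13674 genes, counted from the most dorsal ratio, Nefm ranked 113, Nefh 161, Prph 257, Nefl 658 and Ina 4161. The median log2(V/D) over all genes was -0.01, and the middle 90% of genes, from the 5th to the 95th percentile, ran from -0.42 to 0.38. Nefl therefore lay just past the dorsal end of that range and Ina well within it. Dorsal values above all ventral values were found for 3 of the 5 genes, beside 844 of all genes tested, or 6.17%, and the reverse for none of the 5, beside 4.95%. A mean more than 20% higher dorsally was found for 4 of the 5, beside 10.5% of all genes.

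**Figure D2:**
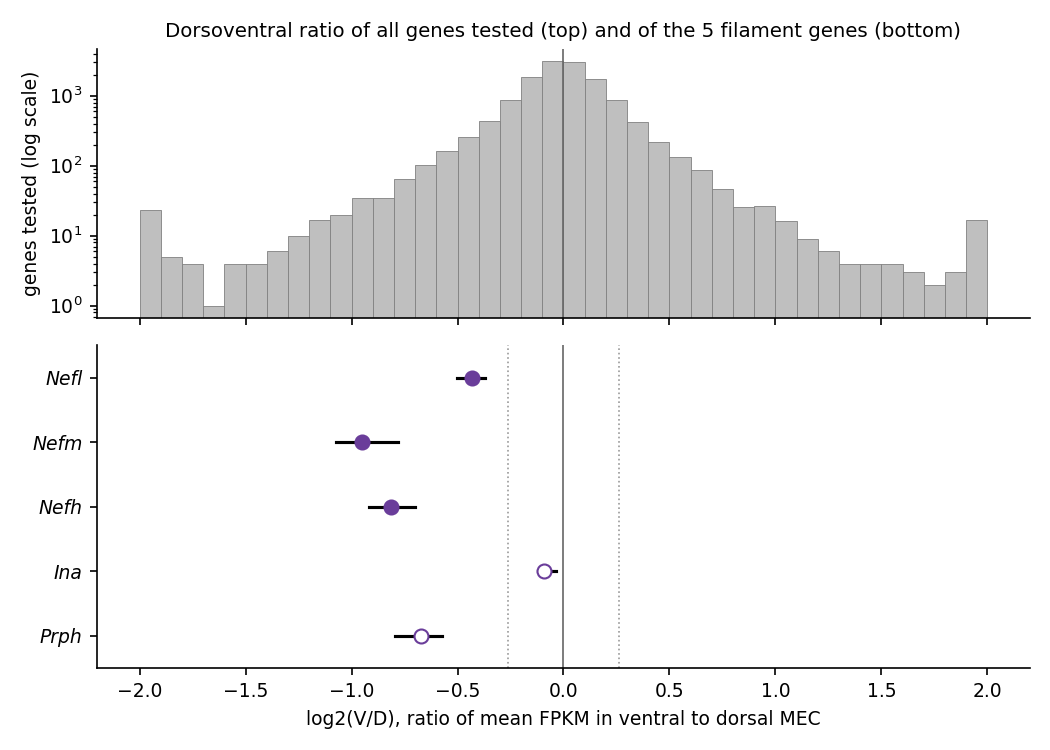
Top, number of the 13674 genes tested (log scale) in each 0.1-wide bin of log2(V/D), the outermost bars also holding genes with larger ratios. Bottom, log2(V/D) of the 5 filament genes, with filled points for called genes, dotted lines at a 20% difference and bars for the range over fits that leave out 1 library. Nefm, Nefh, Prph and Nefl lie in the dorsal flank of the distribution, and Ina, at -0.09, lies in its bulk.

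Dorsal library 4 and ventral library 4 had the most mitochondrial signal and also the highest total FPKM, 341402 and 335328. What part these traits had in the filament values was not tested. Dorsal library 4 was the highest of all 8 for Nefl, Nefm and Ina. With both libraries left out, a setting chosen after the data were seen, log2(V/D) was -0.36 for Nefl, -0.74 for Nefm, -0.76 for Nefh, -0.02 for Ina and -0.58 for Prph. Directions were kept, and none of the 5 genes was called with 3 libraries in each region, with limma adjusted p of 0.163 for Nefl, 0.111 for Nefm and 0.0931 for Nefh. Over all genes, 125 were then called as higher dorsally in place of 294.

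The order of levels was Nefl, Ina, Nefm, Nefh and Prph, from highest to lowest, in 5 libraries, namely all 4 dorsal libraries and ventral library 3. In the other 3 ventral libraries Ina came before Nefl, and the remaining order was the same. Nefl and Ina were the only neighbours in this order that changed places. Among 13674 genes ranked by mean FPKM, Nefl was at place 747, Ina at 863, Nefm at 2402, Nefh at 6218 and Prph at 11217.

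Because the genes differed unequally between the regions, their proportions did too. Within a library, the level of Nefm over that of Nefl was 0.383, 0.451, 0.412 and 0.528 in dorsal libraries 1 to 4 and 0.268, 0.352, 0.338 and 0.292 in ventral libraries 1 to 4. The means were 0.444 ± 0.0625 and 0.312 ± 0.0395 (SD, n = 4 each), so the medium subunit gene was less abundant relative to the light one in every ventral library. The level of Nefh over Nefl was 0.150 ± 0.0199 dorsally and 0.115 ± 0.00954 ventrally (SD, n = 4 each), again without overlap. These ratios share Nefl as the denominator and are no independent measurements. Fragments from the 1108 bases that Nefl shares with Nefm-202 could be credited to either gene. Their part in the level of Nefm over Nefl was not tested.

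The level of Nefh over Nefm did not separate the regions, at 0.342 ± 0.0635 dorsally and 0.372 ± 0.0407 ventrally (SD, n = 4 each). The lowest value of this ratio, 0.250, was in dorsal library 4, where Nefm was highest and Nefh was not. Prph over Nefl also overlapped, at 0.0366 ± 0.00441 and 0.0314 ± 0.00498.

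Relative to Nefl, Ina was higher ventrally, where Nefl was lower and Ina itself was nearly even, with a log2(V/D) of -0.09. The level of Ina over Nefl was 0.893, 0.716, 0.844 and 0.788 in dorsal libraries 1 to 4 and 1.13, 1.01, 0.959 and 1.01 in ventral libraries 1 to 4. Alpha-internexin messages were thus fewer than light subunit messages per unit length in every dorsal library and about equal to them ventrally. The summed FPKM of all 5 genes was 193 ± 23.9 dorsally and 145 ± 10.8 ventrally (SD, n = 4 each). Ina made up 33.2% ± 2.88 of that sum dorsally and 41.3% ± 2.30 ventrally, while the share of Nefm was 18.2% ± 2.45 and 12.6% ± 1.65. The share of Nefl overlapped between the regions, at 41.0% ± 0.710 and 40.3% ± 0.941.

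**Figure D3:**
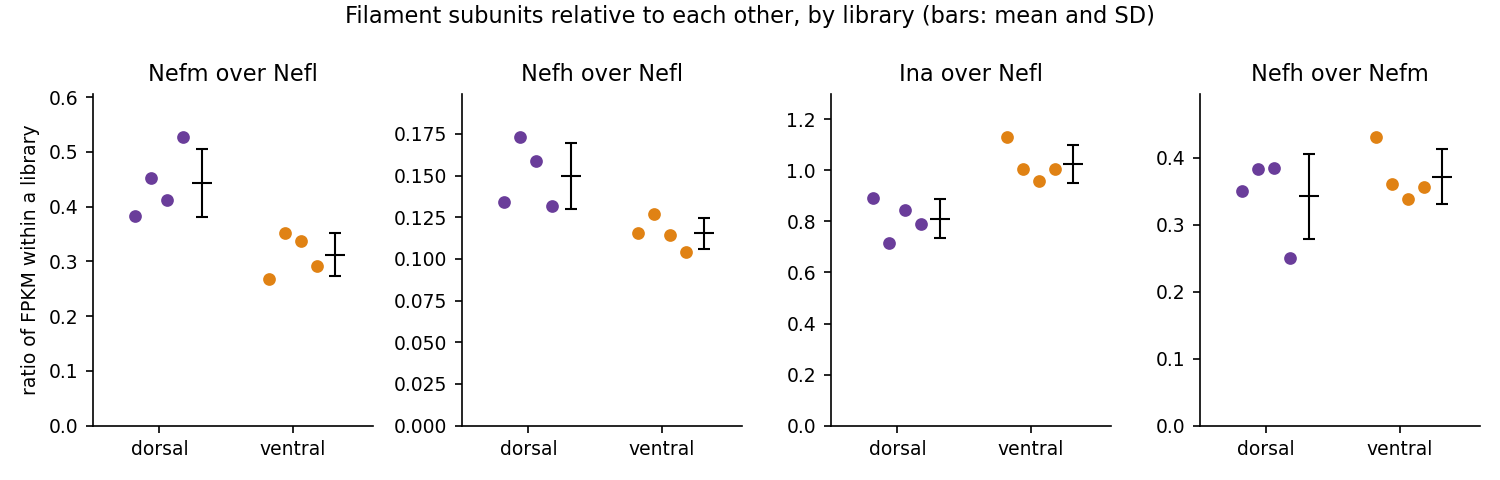
Ratio of FPKM between 2 filament genes within a library (vertical axes, each from 0) in the 4 dorsal and 4 ventral libraries, 1 point per library in the order 1 to 4, with the mean and SD beside the points. Nefm over Nefl and Nefh over Nefl are higher dorsally, Ina over Nefl is higher ventrally, and Nefh over Nefm overlaps.

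Genes that work with the filaments were taken from lists chosen with earlier results of these data known, and each list is described by its counts and median. Beside these counts, 2.15% of all genes tested were called as higher dorsally and 1.45% as higher ventrally. Of the other intermediate filament genes, 6 of 15 in the table were abundant enough to be tested. None passed the test in either direction, and their median log2(V/D) was 0.03. Gfap, the astrocyte filament gene, was the most abundant of them, at 18.3 ± 1.59 FPKM dorsally and 22.1 ± 0.984 ventrally (SD, n = 4 each), with a log2(V/D) of 0.27 and an adjusted p of 0.0914. The epithelial keratin genes Krt8 and Krt18 averaged below 0.1 FPKM.

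Proteins that link filaments to other structures or bind them gave 11 tested genes, of which none was called, with a median log2(V/D) of -0.13. The most abundant, Sptbn1, encodes a spectrin of the membrane skeleton and was at 272 FPKM dorsally and 270 ventrally. Motor genes that carry cargo along axons, 14 in all, had no called member and a median of -0.04. Kif1b, a kinesin gene, led them at 455 and 444 FPKM. The median over the 5 filament genes was the -0.67 of Prph, and that over all genes tested was -0.01.

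The 17 tested genes of kinases and phosphatases that act on neurofilament tails included no called gene and had a median log2(V/D) of -0.04. Camk2a, a calcium-dependent kinase gene of excitatory neurons, was at 388 ± 70.4 FPKM dorsally and 426 ± 65.4 ventrally (SD, n = 4 each). Of 9 tested genes for turnover and folding of filament proteins, none was called, and the median was -0.18. Uchl1, a ubiquitin hydrolase gene abundant in neurons, was at 108 and 105 FPKM.

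Axonal microtubule genes, which build the other long polymer of the axon, gave 1 gene called in each direction among 22 and a median of -0.03. Tuba4a, an alpha-tubulin gene, was higher dorsally, at 132 ± 6.97 against 110 ± 1.88 FPKM (SD, n = 4 each; log2(V/D) -0.27, limma adjusted p = 0.0381). Dpysl3, which encodes a collapsin response mediator of growing axons, was higher ventrally, at 18.8 ± 1.05 against 15.0 ± 0.695 FPKM (log2(V/D) 0.32, adjusted p = 0.0292). Map2, the dendritic microtubule protein gene and the most abundant of those not called, was at 374 and 397 FPKM.

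Genes of the axon initial segment and the node of Ranvier, the sites where axons fire and regenerate spikes, held 5 genes called as higher dorsally and none called as higher ventrally among 17 tested, with a median log2(V/D) of -0.24. Kcna1, a potassium channel gene of the region beside the node, fell from 42.9 ± 2.23 FPKM dorsally to 29.6 ± 1.13 ventrally (SD, n = 4 each; log2(V/D) -0.54, limma adjusted p = 0.00162). Cntn2, which encodes an axonal adhesion protein of the same region, had a log2(V/D) of -0.49 (adjusted p = 0.0247). Kcnq3, an M-current channel gene, had a log2(V/D) of -0.41 (adjusted p = 0.0138). The other two called genes, named after their values were seen, were Cntnap1 and Scn1a, with log2(V/D) of -0.40 and -0.36. Ank3, the ankyrin that anchors the initial segment, was the most abundant gene not called, at 277 ± 29.1 and 248 ± 17.7 FPKM.

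Markers of myelinating cells moved in the same direction as the neurofilament genes. Of the 16 listed genes of myelin and oligodendrocytes, 14 were tested, all 14 were called as higher dorsally, and their median log2(V/D) was -0.87. Opalin had a log2(V/D) of -1.24, Aspa of -1.02 and Mobp of -1.02, with limma adjusted p of 0.000615, 0.00234 and 0.00339. The summed FPKM of the list was 1008 to 1331 over the dorsal libraries and 555 to 725 over the ventral ones. Dorsal library 1 had the lowest dorsal sum and also the lowest dorsal Nefl, Nefm, Nefh and Prph. Ventral library 1 had the lowest sum of all and the lowest Nefl and Nefm, whereas Nefh and Prph were lowest in ventral library 4. Dorsal library 1 and ventral library 1 also had the lowest total FPKM of their regions, 310418 and 298763. No marker of the list averaged below 0.1 FPKM. In such pieces of tissue, fewer cells of a type and less RNA per cell cannot be told apart. The part of the myelin difference in the neurofilament values was not tested.

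Parvalbumin interneurons, fast-spiking inhibitory cells with much neurofilament protein, were followed by 12 genes, all of them tested. There were 3 called as higher dorsally and 1 as higher ventrally, with a median log2(V/D) of -0.07. Pvalb fell from 15.7 ± 2.15 FPKM dorsally to 6.63 ± 0.961 ventrally (SD, n = 4 each; log2(V/D) -1.24, limma adjusted p = 0.000942), and Syt2, a synaptotagmin gene of their terminals, had a log2(V/D) of -1.33 (adjusted p = 0.000408). Tac1, a neuropeptide gene, was higher ventrally, at 7.93 ± 0.728 against 3.88 ± 0.629 FPKM (log2(V/D) 1.03, adjusted p = 0.00178). Cplx1, the most abundant gene not called, was at 147 and 122 FPKM. The summed FPKM of the list was 358 to 398 dorsally and 331 to 357 ventrally. That sum is weighted towards abundant genes such as Cplx1, so it differed less between the regions than Pvalb and Syt2, in the same direction. Of the 12 genes, 6 had a log2(V/D) below 0. No marker averaged below 0.1 FPKM, and the part of these cells in the neurofilament values was not tested.

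**Figure D4:**
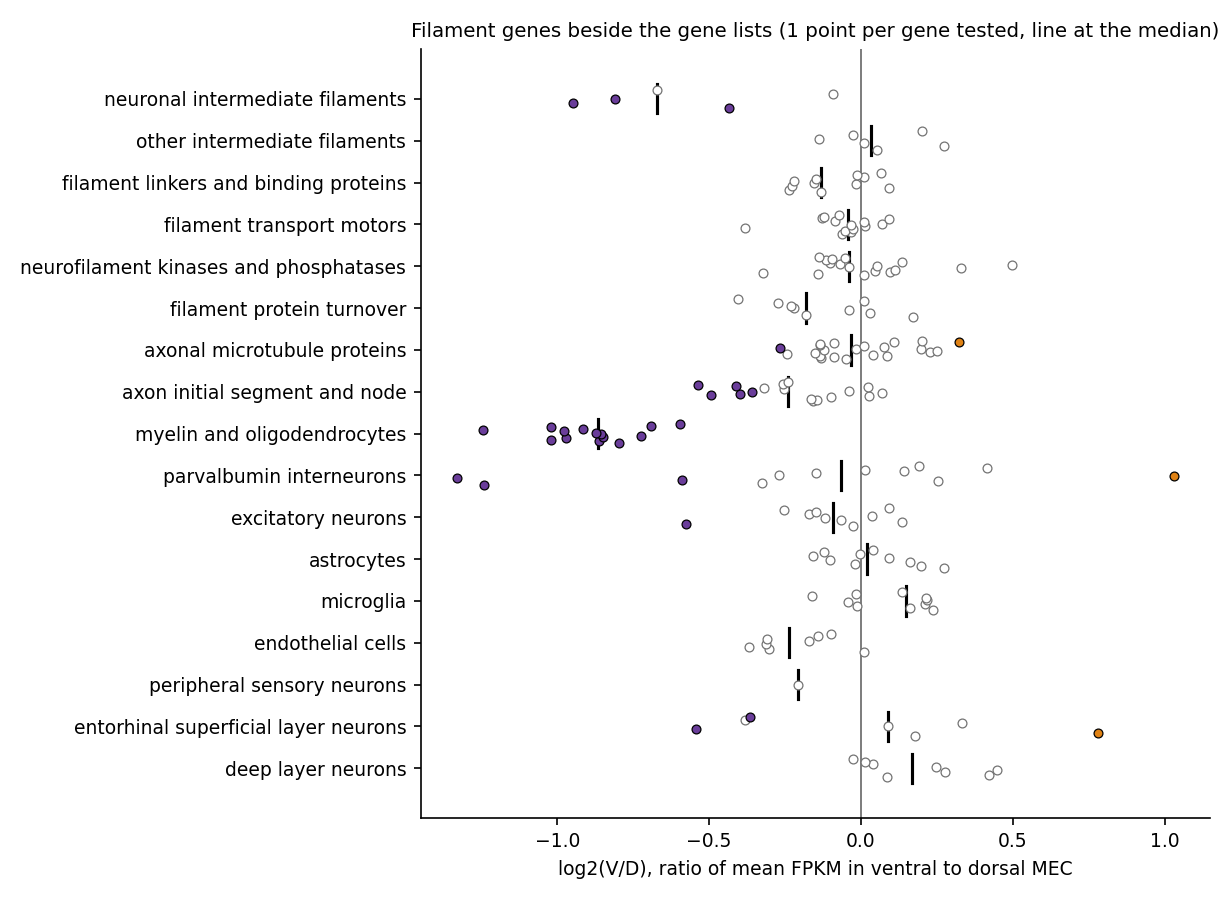
Log2(V/D) of each tested gene in the filament family and in 16 gene lists, 1 point per gene, with a line at each median. Violet points are called as higher dorsally, orange points as higher ventrally and white points are not called. Myelin genes, with a median of -0.87, and filament genes lie furthest to the dorsal side, and the lists of motors, kinases and microtubule proteins lie around 0.

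Broader cell classes were followed too. Excitatory neuron markers had 1 called gene of 10, Slc17a6, a vesicular glutamate transporter gene, with a log2(V/D) of -0.58 (limma adjusted p = 0.00235), and a median of -0.09. The 10 astrocyte, 10 microglia and 8 endothelial markers held no called gene, with medians of 0.02, 0.15 and -0.24. Slc1a2, the most abundant astrocyte marker, was at 682 FPKM dorsally and 635 ventrally, and Itm2a, the most abundant endothelial marker, was at 15.1 and 14.1 FPKM.

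Markers of the cell types best known for peripherin were mostly near 0. Of 13 peripheral sensory neuron markers in the table, 11 averaged below 0.1 FPKM, and only Calca, a neuropeptide gene, was tested, at 4.83 and 4.18 FPKM. Of 6 cholinergic and motor neuron markers in the table, 5 averaged below 0.1 FPKM, and none was tested. Peripherin messages were thus measured in tissue in which most of these markers were near 0.

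Layer markers were read as well. Of 7 tested markers of superficial entorhinal neurons, Wfs1 and Rgs4 were called as higher dorsally, with log2(V/D) of -0.54 and -0.37, and Calb1, the calbindin gene, as higher ventrally, with 0.78. Cux1, the most abundant gene not called, was at 57.6 and 44.2 FPKM. The median of these markers was 0.09. The 8 deep-layer markers held no called gene and had a median of 0.17, with Nr4a2 the most abundant at 181 and 182 FPKM. The summed level of the superficial list was 303 to 330 FPKM dorsally and 259 to 293 ventrally, that of the deep list was 236 to 293 and 257 to 303, and their part in the filament values was not tested. Over all lists, 29 of 173 tested genes were called, or 16.8%, beside 3.6% of all genes tested. The lists were chosen with earlier results known, and 14 of the 29 were myelin genes.

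To see which genes followed each filament gene from library to library within a region, log2(FPKM + 1) was centred on the region means and Pearson's r was taken over the 8 libraries. The 5 filament genes were left out of the choice, so r between filament genes is not given. Genes whose exons overlap the member were left out too. With the rest of the 13674 genes to choose from, high values are found for any gene, and r is given as a description. For Nefl the closest were Rasd2 (r = 0.986), Gm14535 (r = 0.982) and Calhm2 (r = 0.980). For Nefm they were Pcdh7 (r = 0.996), Neo1 (r = 0.989) and Prkca (r = 0.980), and for Nefh they were Itpk1 (r = 0.989), Canx (r = 0.987) and Lrrc59 (r = 0.987). Celf6 (r = 0.987), Tgfbrap1 (r = 0.983) and Pms1 (r = 0.981) followed Ina, and Ncl (r = 0.992), Cyp4f13 (r = 0.975) and AA474331 (r = 0.967) followed Prph. The 5 filament genes had no gene in common among these, and of all 15 genes only Rasd2 was itself called between the regions, with a log2(V/D) of -0.67.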

How the data were processed

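RNA from dorsal and ventral MEC was pooled from 3 or 4 mice per group, amplified from 120 ng with the Ovation RNA-Seq System V2 (RIN 7.1 to 8.5) and sequenced as paired ends. Per the labels and the study's methods, the authors called bases with CASAVA 1.8, aligned reads to GRCm38 with TopHat2 2.0.8 and Ensembl 73, and estimated FPKM with Cuffdiff. The deposited FPKM values hold 1 column per library and are normalised by length and library size. The columns were assigned to regions through the regional means, as described above. The deposited fold changes, p-values and test statistics were not used, nor was the table of estimated fragments, whose libraries are not tied to samples by name, so no count test was run. 

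Genes with the status OK in the authors' comparison and a mean FPKM of at least 1 were tested (13674 genes). Genes of other statuses, such as too few alignments, were left out, and not all of them were low in FPKM. Ventral was compared with dorsal, 4 libraries each, by limma 3.58.1 in R 4.3.3, two-sided, on log2(FPKM + 1), letting the variance follow the mean level, with Benjamini-Hochberg adjustment over all tested genes. A call needed an adjusted p below 0.05 and a difference of more than 20% in mean FPKM. Log2(V/D) is the ratio of mean FPKM without the added constant, and the limma estimate, with the constant, understates the change of low genes. Depth per library is unknown, so no counting interval is given. The members, the gene lists and the tests were chosen with earlier results of these data known. Members were reported in full, and from each list at most 3 called genes with the largest ratio and the most abundant gene not called, except that some listed genes are not reported here by name. For each member, 3 genes were named by correlation, leaving out all members and the genes whose exons overlap that member. Alternatives changed the constant, the filters, the variance model, the scaling, the assignment of libraries and the libraries used. Sequences and positions came from GENCODE M21 on GRCm38, a later annotation than the authors'.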

Additional observations from a re-analysis of the deposited data

How the results depend on the processing

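Ina kept its direction and stayed uncalled under all alternatives. Nefl, Nefm and Nefh kept their calls with a constant of 0.1, with no filter on mean FPKM or one of 5, with sample quality weights, after quantile normalization and after both kinds of rescaling, one of them chosen after the data were seen. With genes of all statuses kept, or with no variance trend, Nefl (log2(V/D) -0.43) had a limma adjusted p of 0.0523 and 0.0562 and was not called. Rescaling to one total FPKM gave 195 genes called as higher dorsally in place of 294.

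With regions taken from the column headers, log2(V/D) was 0.14 for Nefl, 0.39 for Nefm, 0.19 for Nefh and 0.33 for Prph, and 1 gene was called as higher dorsally and 0 as higher ventrally, with 0 and 0 of the listed genes and 0 of the filament genes. With the 4 libraries whose header names their region, the values were -0.31 for Nefl, -0.62 for Nefm and -0.66 for Nefh, with adjusted p of 0.462, 0.344 and 0.3997, and all counts of calls were 0 with 2 libraries in each region. With dorsal library 4 and ventral library 4 left out, a choice made after the data were seen, the values were -0.36 for Nefl, -0.74 for Nefm and -0.76 for Nefh. The counts were 125 genes higher dorsally and 76 ventrally, 13 and 1 of the listed genes, and 0 filament genes.

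Fits that each left out 1 library gave log2(V/D) from -0.50 to -0.37 for Nefl (called in 2 of 8 fits), -1.07 to -0.78 for Nefm (5 of 8), -0.92 to -0.70 for Nefh (8 of 8), -0.12 to -0.04 for Ina (0 of 8) and -0.80 to -0.57 for Prph (1 of 8). The number of genes called as higher dorsally ran from 157 to 341 and ventrally from 91 to 191, of listed genes from 20 to 26 and from 1 to 5, and of filament genes from 1 to 4, with 1 left without dorsal library 2, ventral library 1 or ventral library 4.

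Prph was not tested with a filter of 5 FPKM. No paired analysis was possible because the sources used here do not say which pool of mice a library came from. The depth of each library is unknown, and a difference as small as the 6.48% of Ina could not be called under a rule that asks for more than 20%.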
